A study of Mus musculus with 8 samples.

Results

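The 10 genes Glul, Oat, Slc1a2, Rhbg, Lgr5, Axin2, Tbx3, Rnf43, Wnt2 and Rspo3 act around the central vein of the liver lobule, as Wnt signals, signalling components or pericentral hepatocyte genes. They were taken by symbol from the 22059 genes listed in the files, and all 10 were among the 17081 genes that passed the filter on low counts. Poly(A) RNA of whole liver was sequenced from mice of the inbred strain FVB (FVB/NJ in the study's methods) on day 18 of embryonic life (E18), on days 14 and 28 after birth (P14 and P28) and as adults of 3 months, with 2 samples per stage. The labels name no transgene, deletion or treatment for any group, and do not say whether a sample came from 1 animal or a pool, or of which sex. Whole liver holds every lobule zone, so the data give the level of these genes over the organ and not their position in the lobule.

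Blood enters the lobule at the portal tract and leaves at the central vein, and hepatocytes along this path divide the metabolic work, which is called zonation. Endothelial cells of the central vein secrete Wnt ligands and R-spondins. R-spondins bind LGR receptors and keep the ubiquitin ligases RNF43 and ZNRF3 from removing Frizzled receptors, so that beta-catenin accumulates in the nearest hepatocytes and acts with TCF/LEF factors. The hepatocytes next to the vein express glutamine synthetase, encoded by Glul, which captures the ammonia that the upstream urea cycle has missed.

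Promoter sequences from RefSeq (GRCm38.p6, 250 bases before to 50 after the transcription start) were found for 6 of the 10 genes. No window was found for Rhbg, Lgr5, Tbx3 and Rspo3. They are shown for the transporter with the largest rise, for the enzyme that defines the pericentral layer and for the feedback gene that is the usual readout of Wnt signalling. Capitals mark the core letters that TCF/LEF factors bind, searched on both strands as CTTTGAA, again as CTTTGAT, further as CTTTGTA and lastly as CTTTGTT.
Slc1a2 (chr2:102706188-102706487, + strand): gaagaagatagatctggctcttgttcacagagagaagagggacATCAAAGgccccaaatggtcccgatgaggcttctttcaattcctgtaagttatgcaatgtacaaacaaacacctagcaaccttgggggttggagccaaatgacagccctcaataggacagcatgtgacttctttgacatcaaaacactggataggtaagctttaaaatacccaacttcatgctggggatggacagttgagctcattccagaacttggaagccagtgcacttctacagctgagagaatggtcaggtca
Glul (chr1:153899679-153899978, + strand): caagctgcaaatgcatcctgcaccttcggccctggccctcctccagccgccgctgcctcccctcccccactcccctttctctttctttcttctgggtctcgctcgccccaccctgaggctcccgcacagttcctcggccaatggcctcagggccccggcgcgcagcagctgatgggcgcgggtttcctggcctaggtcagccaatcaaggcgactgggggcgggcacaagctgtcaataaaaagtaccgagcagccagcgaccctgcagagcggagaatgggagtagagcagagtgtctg
Axin2 (chr11:108920099-108920398, + strand): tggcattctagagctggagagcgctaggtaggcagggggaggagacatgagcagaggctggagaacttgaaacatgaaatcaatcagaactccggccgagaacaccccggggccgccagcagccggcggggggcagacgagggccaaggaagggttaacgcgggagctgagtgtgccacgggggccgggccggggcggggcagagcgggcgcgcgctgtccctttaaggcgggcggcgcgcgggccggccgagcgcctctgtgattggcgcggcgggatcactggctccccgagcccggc
The Slc1a2 window held 1 match, to CTTTGAT on the reverse strand, whose first base lies at position -207 from the start. No match was found in these windows of Glul, Axin2, Wnt2, Oat and Rnf43, the last with 2 windows. At least 1 of the 4 heptamers was present in 16.9% of the 32851 promoter windows of the table, and CTTTGAT in 3.73%. The windows also differed in base composition. GC content was 45.7% for Slc1a2 and 46.7 and 44.3% for Rnf43, against 64.3% for Glul, 65.7% for Wnt2, 61.7% for Oat and 70% for Axin2, with a median of 52.7% over all windows. Slc1a2 had 1 CG pair in its window, Glul 17 and Axin2 31. The Slc1a2 window belongs to a start that lies 47779 bases downstream of the first annotated base of the gene in GENCODE M21, and the counts, given per gene, do not tell which start was used.

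Levels are given as normalised RPKM, the reads per kilobase of transcript per 1000000 reads after TMM scaling. This scaling aims to set aside differences in RNA composition between samples and assumes that most genes do not change. Changes are log2 fold changes with their standard error (SE) from edgeR, and a gene was called changed at an adjusted p below 0.1 over all tested genes. From E18 to P14 all 10 genes were called higher, 6 of them over 3-fold, where 38.2% of all tested genes were called higher, 39.3% lower and 13.8% higher over 3-fold. From P14 to P28, 4 genes rose (Glul, Oat, Slc1a2 and Tbx3) and 3 fell (Wnt2, Rspo3 and Lgr5), against 25.2% and 28.6% of all genes, and only Slc1a2 rose over 3-fold, against 3.61%. From P28 to adult only Slc1a2 was called higher and only Wnt2 lower, against 7.94% and 13.2%. Without P14 replicate 1 only Oat and Slc1a2 rose from P14 to P28, and from P28 to adult 0 genes rose without adult replicate 1 or either P28 sample and 0 fell without P28 replicate 2 or either adult sample. From E18 to adult 9 genes were called higher, with Wnt2 the exception, and 4 of them over 3-fold, against 39.5% and 16.8%. From P14 to adult 4 genes were higher (Glul, Oat, Slc1a2 and Rnf43) and 4 lower (Wnt2, Rspo3, Lgr5 and Rhbg), against 29% and 32.1%. The 10 genes had a median log2 fold change of 1.66 from E18 to P14 and of 0.04 from P14 to adult, against -0.03 over all tested genes in both intervals.

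**Figure D1:**
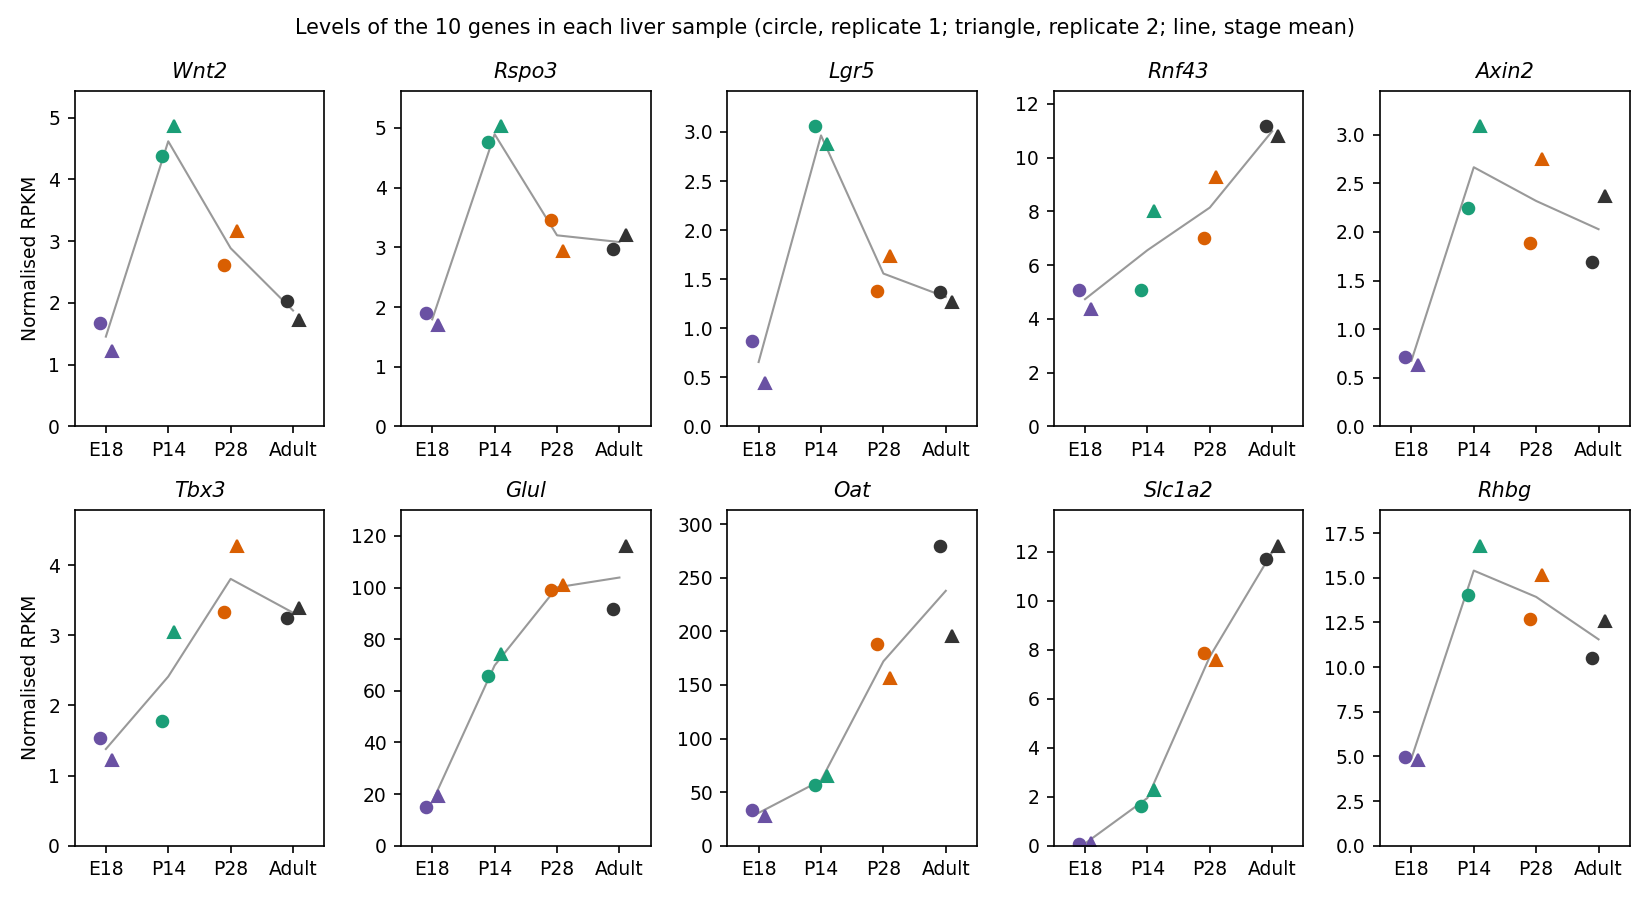
Normalised RPKM (y axis, from 0) of the 10 genes at the 4 stages (x axis), with a circle for replicate 1, a triangle for replicate 2 and a line through the stage means. Wnt2, Rspo3 and Lgr5 were highest in both P14 samples, Slc1a2 rose at every step, and the replicates of Rnf43 and Tbx3 lay far apart at P14.

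The comparisons with E18 depend on the scaling. TMM factors were 1.598 and 1.539 in the E18 samples and 0.847 to 0.888 in the 6 postnatal samples, and scaling by library size alone lowered the median log2 fold change of all genes by 0.87 from E18 to P14 and by 0.85 from E18 to adult. The share of called genes that were higher then went from 49.2% to 21.8% for E18 to P14, and from 47.4% to 25.4% for E18 to adult. With library size alone 7 of the 10 genes were still called higher from E18 to P14, 1 of them over 3-fold. Of all 17081 tested genes 3177 were then called higher and 11402 lower. From E18 to adult 5 of the 10 were called higher and 1, Wnt2, lower, against 3770 and 11086 of all tested genes. For the comparisons among P14, P28 and adult, library size alone moved the median of all genes by at most 0.02.

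Wnt2 encodes a Wnt ligand made by endothelial cells of the central vein and the sinusoids. Its level was 1.68 and 1.23 at E18, then 4.38 and 4.86 at P14, 2.61 and 3.16 at P28 and, in adult, 2.03 and 1.72. Both P14 samples lay above all others, and the adult samples lay above the E18 samples by less than the test could call. The gene rose 3.17-fold from E18 to P14 (log2 fold change 1.67, SE 0.18, edgeR adjusted p = 3.67e-05) and fell by 1.30 on the log2 scale from P14 to adult (SE 0.19, edgeR adjusted p = 0.000395). The fall was seen in both steps, with a log2 fold change of -0.68 from P14 to P28 (edgeR adjusted p = 0.0145) and -0.62 from P28 to adult (edgeR adjusted p = 0.0588). The last call was lost without P28 replicate 2 or either adult sample, where the edgeR adjusted p was 0.112 to 0.263. From E18 to adult the log2 fold change was 0.37 (edgeR adjusted p = 0.101), and it turned to -0.49 with library size alone (edgeR adjusted p = 0.0414). It was called higher without E18 replicate 1 (0.61, edgeR adjusted p = 0.022), and just so without adult replicate 2 or either P28 sample (edgeR adjusted p = 0.0943 to 0.095).

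Rspo3 encodes the R-spondin of the central vein. Its level was 1.89 and 1.69 in the E18 samples, 4.77 and 5.02 in those of P14, 3.46 and 2.94 at P28 and 2.98 and 3.20 in the adult samples. The P14 samples were again the highest, the P28 and adult samples overlapped, and both E18 samples were below all others. It rose 2.73-fold from E18 to P14 (log2 fold change 1.45, SE 0.13, edgeR adjusted p = 1.02e-05) and fell by 0.61 on the log2 scale to P28 (SE 0.13, edgeR adjusted p = 0.00513). From P28 to adult the log2 fold change was -0.05 (edgeR adjusted p = 0.845). The adult level was above E18 by 0.78 (SE 0.13, edgeR adjusted p = 0.000494), whereas with library size alone the difference was -0.07 (edgeR adjusted p = 0.674). All calls of Rspo3 held when any 1 sample was left out. Wnt2 reached 0.726 to 1.07 times the level of Rspo3 in the samples up to P28 and 0.682 and 0.539 times that level in adult.

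Markers of endothelial cells in general moved with Wnt2 and Rspo3 from E18 to P14 and from P14 to P28, but not over the whole period. Of 14 liver endothelial markers, among them Pecam1, Cdh5 and Stab2, 12 rose and 1 fell from E18 to P14, 13 fell and 0 rose from P14 to P28, and none was at 0 reads in any sample. The count from E18 to P14 was 5 higher and 3 lower with library size alone. From P28 to adult 10 fell and 0 rose, and from E18 to adult 9 fell and 3 rose, with a median log2 fold change of -0.66, whereas Rspo3 was higher in adult than at E18. The summed level of the 14 markers was 119 to 136 normalised RPKM at E18, 310 to 318 at P14, 181 to 184 at P28 and 134 to 156 in adult, of which Clec4g alone was 5.36 in both E18 samples and 57.0 and 47.6 in adult. Of 10 stellate and mesenchymal markers 9 were higher from E18 to P14 and 6 lower from P14 to P28, but from E18 to adult 6 rose and 2 fell (5 and 5 with library size alone), with sums of 69.5 to 80.5, 314 to 345, 247 to 263 and 219 to 242 at the 4 stages. In whole liver, fewer cells of a type and less RNA per cell cannot be told apart.

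Relative to the mean log2 level of the 14 endothelial markers, Wnt2 was at -2.95 and -3.23 at E18, then -2.72 and -2.51 at P14, -2.42 and -2.10 at P28 and, in adult, -2.34 and -2.38. Rspo3 was at -2.59 in both E18 samples, -2.42 and -2.28 in those of P14, -1.84 and -2.02 at P28 and -1.61 and -1.31 in the adult samples. On this scale neither signal had its peak at P14. Rspo3 was higher in adult than at P14 by 0.88, and Wnt2 by 0.25, with the samples apart in both cases. No test was made of these relative levels, and they depend on the reference list. From P14 to adult the median log2 fold change was -1.65 for the 14 markers and -0.78 for 6 central-vein endothelial markers. Of these 6, 3 fell and 1 rose. Wnt2, at -1.30, fell less than the first median but more than the second, and Rspo3, at -0.66, fell less than both. The 10 stellate and mesenchymal markers had medians of 1.70 from E18 to P14, -0.96 from P14 to adult and 0.96 from E18 to adult. For Rspo3 these changes were 1.45, -0.66 and 0.78, so that from E18 to adult Rspo3 rose no more than this median. The lack of a P14 peak and the gains to adult thus apply to the scale of the 14 markers.

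**Figure D2:**
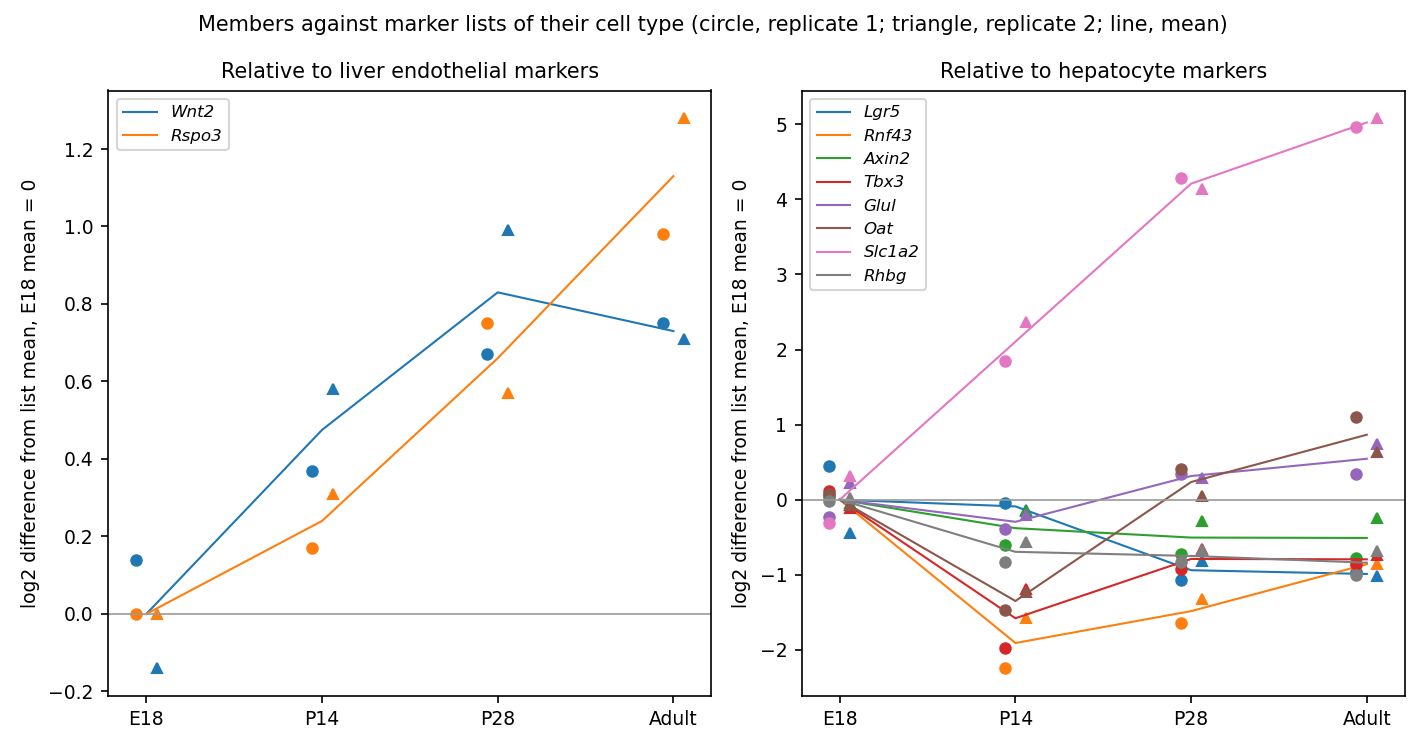
Log2 level of each gene minus the mean log2 level of the markers of its cell type (y axis, set to 0 at the E18 mean) at the 4 stages (x axis), with circles for replicate 1, triangles for replicate 2 and lines through the means. Rspo3 and Wnt2 stood 1.13 and 0.72 above E18 in adult against the 14 liver endothelial markers, and Slc1a2 stood 5.02 above E18 against hepatocyte markers.

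Lgr5 encodes an R-spondin receptor and is itself a Wnt target. Its level was 0.872 and 0.441 in the E18 samples, 3.06 and 2.87 in those of P14, 1.38 and 1.74 at P28 and 1.37 and 1.27 in the adult samples. The P14 samples lay clearly above the rest, and the E18 samples differed from each other more than those of any later stage. It rose 4.51-fold from E18 to P14 (log2 fold change 2.17, SE 0.27, edgeR adjusted p = 8.78e-05), with a range of 1.78 to 2.75 when each sample was left out. From P14 to P28 it fell by 0.93 (SE 0.27, edgeR adjusted p = 0.0195), a call lost without P28 replicate 1 (edgeR adjusted p = 0.107). The adult level stayed below P14 by 1.17 on the log2 scale (SE 0.27, edgeR adjusted p = 0.00556) and above E18 by 1.00 (edgeR adjusted p = 0.00781), the latter 0.14 with library size alone (edgeR adjusted p = 0.646), 1.58 without E18 replicate 1 and 0.60 without E18 replicate 2. E18 replicate 1, the sample with more Lgr5, also had more RNA of the gut genes Cdx2 (2.15 against 1.16 normalised RPKM) and Vil1 (2.35 against 1.43), and 8 of 9 gut markers were higher in it, Fabp2 being the exception. That sample also had more RNA of the sex-linked gene Xist and none of Ddx3y, unlike E18 replicate 2. The part of gut RNA or of sex in the Lgr5 level was not tested. Lgr4, a related R-spondin receptor, was higher than Lgr5 in every sample, by 4.16 to 11.3 times. It rose from 4.56 and 3.76 at E18 to 12.9 and 11.9 at P14 (log2 fold change 1.58, SE 0.11, edgeR adjusted p = 1.5e-06) and had no later call, with 13.3 and 14.4 in adult.

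Rnf43 encodes the ubiquitin ligase that removes Frizzled receptors. Its level was 5.09 and 4.38 at E18, then 5.09 and 8.02 at P14, 7.0 and 9.29 at P28 and, in adult, 11.2 and 10.8. Both adult samples lay above all others, P14 replicate 1 was no higher than E18 replicate 1, and neighbouring stages from P14 on did not differ beyond their spread. From E18 to P14 the log2 fold change was 0.47 (SE 0.21, edgeR adjusted p = 0.0672), and it was -0.40 with library size alone (edgeR adjusted p = 0.104). From P14 to P28 it was called higher without P14 replicate 2 (0.67, edgeR adjusted p = 0.0246), and from P28 to adult without either P14 sample (edgeR adjusted p = 0.0968). The call from E18 to P14 was also lost without P14 replicate 2 (0.12, edgeR adjusted p = 0.582) and without E18 replicate 2 (edgeR adjusted p = 0.25). From P14 to adult Rnf43 rose 1.68-fold (log2 fold change 0.74, SE 0.21, edgeR adjusted p = 0.0142), so that it moved against Wnt2, Rspo3 and Lgr5 in that interval. Without P14 replicate 2 the rise was 1.10 and without P14 replicate 1 it was 0.45 (edgeR adjusted p = 0.0744). Its paralogue Znrf3 was not called in any of the 5 comparisons, with 1.60 and 1.10 at E18 and 1.42 and 1.70 in adult. Under library size alone Znrf3 was lower in adult than at E18 by 0.64 (edgeR adjusted p = 0.0139).

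Axin2 encodes a scaffold of the complex that degrades beta-catenin and is switched on by Wnt signalling. Its level was 0.716 and 0.635 in the E18 samples, 2.25 and 3.08 in those of P14, 1.89 and 2.75 at P28 and 1.69 and 2.37 in the adult samples. The E18 samples lay below all others and the postnatal stages overlapped. It rose 3.94-fold from E18 to P14 (log2 fold change 1.98, SE 0.24, edgeR adjusted p = 7.28e-05), and none of its later steps was called. From P14 to adult the log2 fold change was -0.39 (SE 0.23, edgeR adjusted p = 0.189), called lower only without P14 replicate 1 or adult replicate 2 (edgeR adjusted p = 0.0926 and 0.0904). The adult level was 3.004 times that at E18 (log2 fold change 1.59, edgeR adjusted p = 0.000248), just past the 3-fold threshold.

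Tbx3 encodes a T-box transcription factor that hepatocytes express under Wnt control. Its level was 1.53 and 1.23 at E18, then 1.77 and 3.05 at P14, 3.33 and 4.28 at P28 and, in adult, 3.25 and 3.39. All P28 and adult samples were above the P14 samples, of which replicate 1 lay close to E18. From E18 to P14 the log2 fold change was 0.81 (SE 0.24, edgeR adjusted p = 0.0132), but -0.07 with library size alone (edgeR adjusted p = 0.808) and 0.38 without P14 replicate 2 (edgeR adjusted p = 0.119). The rise from P14 to P28 was 0.66 (SE 0.24, edgeR adjusted p = 0.0492), lost without P14 replicate 1 (edgeR adjusted p = 0.244) or P28 replicate 2 (edgeR adjusted p = 0.238). From E18 to adult the log2 fold change was 1.27 (edgeR adjusted p = 0.000989), and 0.42 with library size alone (edgeR adjusted p = 0.139). From P14 to adult it was 0.46 (edgeR adjusted p = 0.131), called without P14 replicate 2 (0.90, edgeR adjusted p = 0.00809) and by DESeq2 (adjusted p = 0.0663). P14 replicate 2, the sample with more Tbx3, Rnf43 and Axin2, also had more of the bile duct keratin Krt19 (7.42 against 1.80 normalised RPKM). The sum of 6 bile duct markers, Krt19 included, differed less, at 54.1 against 47.2, and Krt19 made up most of that difference. P14 replicate 2 was also the P14 sample with more RNA of the sex-linked gene Xist. The part of bile duct cells, of other cells or of sex in the levels of these genes was not tested.

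Glul encodes glutamine synthetase, which joins ammonia to glutamate. Its level was 14.8 and 19.1 in the E18 samples, 65.5 and 74.1 in those of P14, 99.2 and 101 at P28 and 91.6 and 116 in the adult samples. Each stage up to P28 lay apart from the one before, and the adult samples stood on either side of the P28 samples. It rose 4.12-fold from E18 to P14 (log2 fold change 2.04, SE 0.16, edgeR adjusted p = 3.08e-06) and 1.43-fold from P14 to P28 (0.52, SE 0.15, edgeR adjusted p = 0.0215), with 0.05 from P28 to adult (edgeR adjusted p = 0.862). The second step was not called without P14 replicate 1 (edgeR adjusted p = 0.127), and the rise from P14 to adult (0.57, edgeR adjusted p = 0.0111) was not called without adult replicate 2 (0.38, edgeR adjusted p = 0.109). From E18 to adult the rise was 6.14-fold (log2 fold change 2.62, edgeR adjusted p = 4.51e-07), and 1.77 on the log2 scale with library size alone.

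Oat encodes ornithine aminotransferase, which turns ornithine towards glutamate. Its level was 33.1 and 28.1 at E18, then 56.4 and 65.5 at P14, 188 and 156 at P28 and, in adult, 280 and 196. The stages did not overlap, and the largest step fell between P14 and P28. The rise was 1.99-fold from E18 to P14 (log2 fold change 0.99, SE 0.18, edgeR adjusted p = 0.000904), which came to 0.12 with library size alone (edgeR adjusted p = 0.52). From P14 to P28 it was 2.82-fold (1.5, SE 0.18, edgeR adjusted p = 0.00026). From P28 to adult the log2 fold change was 0.47 (SE 0.18, edgeR adjusted p = 0.122), called by DESeq2 (adjusted p = 0.0472) and, in edgeR, without adult replicate 2 (adjusted p = 0.049). Oat stood at 0.86 and 0.884 times the level of Glul at P14 and at 1.47 to 3.06 times that level in the other 6 samples.

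Slc1a2 encodes a sodium-driven glutamate transporter, also known as GLT-1. It had 121 and 155 reads at E18, which limits those levels to a counting error of 9.09 and 8.03%, and 8232 and 9813 reads in adult. Its level was 0.0722 and 0.105 in the E18 samples, 1.60 and 2.29 in those of P14, 7.87 and 7.57 at P28 and 11.7 and 12.3 in the adult samples. No stages overlapped, and every step was upward. The rise was 22.0-fold from E18 to P14 (log2 fold change 4.46, SE 0.21, edgeR adjusted p = 1.59e-07), 3.97-fold from P14 to P28 (1.99, SE 0.18, edgeR adjusted p = 5.11e-05) and 1.55-fold from P28 to adult (0.63, SE 0.17, edgeR adjusted p = 0.0414). The last step was not called when any 1 of the 4 samples was left out, with values of 0.60 to 0.66 (edgeR adjusted p = 0.124 to 0.167). From E18 to adult Slc1a2 rose 136-fold (log2 fold change 7.09, SE 0.23, edgeR adjusted p = 1.11e-08), and 6.24 on the log2 scale with library size alone.

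Rhbg encodes an ammonia transporter of the hepatocyte membrane. Its level was 4.97 and 4.79 at E18, then 14.0 and 16.8 at P14, 12.7 and 15.1 at P28 and, in adult, 10.5 and 12.6. Unlike the other 3 metabolic genes it had its highest mean at P14, and neighbouring postnatal stages did not differ beyond their spread. It rose 3.15-fold from E18 to P14 (log2 fold change 1.66, SE 0.14, edgeR adjusted p = 5.48e-06) and was lower in adult than at P14 by 0.41 (SE 0.14, edgeR adjusted p = 0.029). The latter call was lost without P14 replicate 2 (edgeR adjusted p = 0.192) or adult replicate 1 (edgeR adjusted p = 0.177). Together the 4 metabolic genes summed to 52.9 and 52.0 at E18 and 394 and 337 in adult. Glul made up 28.0 and 36.6% of that sum at E18, 47.7 and 46.7% at P14, and 23.3 and 34.5% in adult.

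**Figure D3:**
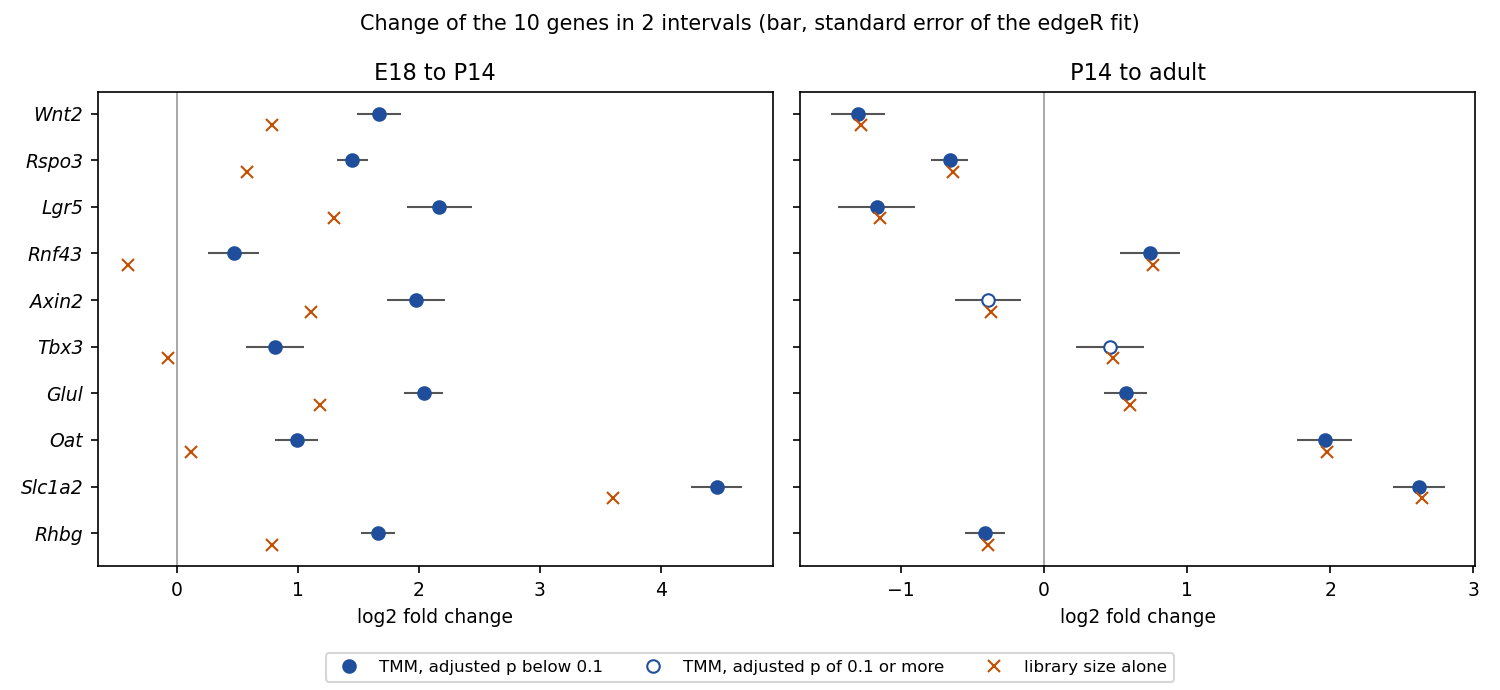
Log2 fold change (x axis) of the 10 genes (y axis) from E18 to P14 and from P14 to adult, as edgeR values with TMM (circles, bars for the standard error, filled where the adjusted p was below 0.1) and with library size alone (crosses). From E18 to P14 the crosses lie to the left, below 0 for Rnf43 and Tbx3, and from P14 to adult both scalings give nearly the same values, from -1.30 for Wnt2 to 2.62 for Slc1a2.

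General hepatocyte markers such as Alb and Apob rose as well, with 8 of 8 higher from E18 to P14 and none at 0 reads in any sample. Their summed level was 29230 to 29790 at E18, 142200 to 144000 at P14, 95880 to 102100 at P28 and 54490 to 65850 in adult. Of the 8, 4 rose and 4 fell from P14 to adult, with a median log2 fold change of -0.12, and Alb, the highest of them, went from 80010 and 80080 to 32280 and 24310. Against the mean log2 level of these markers, Slc1a2 still gained 2.10 from E18 to P14 and 2.91 from P14 to adult. Glul stood 0.29 lower at P14 than at E18 on that scale, with values of -4.50 and -4.05 at E18 and -4.66 and -4.48 at P14, and then gained 0.84 to adult. Oat lost 1.35 and then gained 2.22. The differences from E18 to P14 were -0.09 for Lgr5, -0.38 for Axin2, -0.70 for Rhbg, -1.58 for Tbx3 and -1.91 for Rnf43, so that of the 8 genes compared with these markers only Slc1a2 rose more than their mean in that interval. This depends on the mean, since the markers had a median log2 fold change of 2.05, which Lgr5 passed, at 2.17, and Glul nearly reached, at 2.04. On the scale of the mean, Rnf43 gained 1.05 from P14 to adult and Tbx3 0.78, while Lgr5 lost 0.90, Axin2 0.13 and Rhbg 0.15.

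The other genes of the Wnt pathway did not share a direction from E18 to adult. Of 89 listed genes, 80 were tested, and 29 rose and 38 fell from E18 to adult, where 39.5% and 43.8% of all genes did, with a median log2 fold change of -0.30 against -0.11 over all genes and 1.26 for the 10 genes. From P14 to P28, 12 of the 80 rose and 36 fell, against 25.2% and 28.6% of all tested genes, so that falls prevailed in that interval. Among the 10 tested Wnt ligands 6 rose and 3 fell from E18 to adult, and 3 rose and 4 fell with library size alone. Wnt9b, the other ligand of the central vein, had 0.0542 and 0.0832 in the E18 samples, 0.507 and 0.683 in those of P14, 0.470 and 0.458 at P28 and 0.555 and 0.557 in the adult samples. It rose by 3.12 from E18 to P14 (SE 0.25, edgeR adjusted p = 4.44e-06) and, unlike Wnt2, had no call from P14 to adult (log2 fold change -0.10, edgeR adjusted p = 0.736). The difference between the 2 ligands was not tested. Wnt2 was 31.0 and 14.8 times as high as Wnt9b at E18 and 3.66 and 3.10 times in adult. Wnt5b rose by 3.66 from E18 to adult (SE 0.18, edgeR adjusted p = 1.24e-07) and Wnt5a by 1.75 (edgeR adjusted p = 1.86e-05), the latter with its highest level at P14.

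All 3 other R-spondins fell from E18 to adult. Rspo1, the highest of them, went from 0.896 and 0.807 to 0.347 and 0.361 (log2 fold change -1.26, SE 0.28, edgeR adjusted p = 0.00241). Rspo2 and Rspo4 were near the limit of counting after birth, and Rspo4 had 27 and 17 reads at E18 and 0 in both adult samples. Rspo3 was therefore 8.58 and 8.85 times as high as Rspo1 in adult and 2.12 and 2.10 times at E18.

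Of 16 tested receptors and co-receptors 6 rose and 6 fell from E18 to adult, and 4 and 10 did with library size alone. Fzd8 rose from 1.25 and 1.20 at E18 to 18.5 and 22.6 at P14 (log2 fold change 4.07, SE 0.18, edgeR adjusted p = 1.03e-07), and from E18 to adult Ror2 fell by 4.78 and Fzd2 fell by 4.37. Among 13 secreted inhibitors 4 rose and 8 fell (3 and 9 with library size alone). Notum, a secreted enzyme that strips Wnt ligands of their lipid and a Wnt target itself, went from 0.389 and 0.393 at E18 to 29.9 and 34.4 at P14 (log2 fold change 6.36, SE 0.13, edgeR adjusted p = 4.67e-09). It then held, at 30.6 and 27.2 at P28 and 33.0 and 30.8 in adult (P14 to adult -0.01, edgeR adjusted p = 0.936). Dkk4 had 1 to 10 reads in the 6 samples before adult and 118 and 164 reads in adult (P28 to adult 4.91, SE 0.59, edgeR adjusted p = 0.00113). Sfrp2, Dkk1 and Sfrp5 were the inhibitors with the largest falls.

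Inside the cell, of 12 genes of the destruction complex and signal relay 4 rose and 7 fell from E18 to adult (1 and 11 with library size alone), and only Dvl1 passed 3-fold. Ctnnb1, which encodes beta-catenin, had 103 and 97.3 at E18 and 115 and 122 in adult, a log2 fold change of 0.24 (edgeR adjusted p = 0.0384) that was -0.61 with library size alone. Of 12 TCF/LEF factors and partners 3 rose and 5 fell (3 and 9 with library size alone). Tcf7l2 had 4.13 and 5.93 at E18 and 4.50 and 4.16 in adult (log2 fold change -0.22, edgeR adjusted p = 0.223), and Lef1 fell by 1.59 (edgeR adjusted p = 0.0106). Of 12 other Wnt target genes 5 rose and 5 fell (4 and 7 with library size alone). Sp5 rose by 3.69 from E18 to P14 (SE 0.26, edgeR adjusted p = 1.92e-06) and Nkd1 by 1.52 (SE 0.19, edgeR adjusted p = 7.72e-05), and neither was called from P14 to adult. Cldn2, a tight junction gene, rose by 5.60 from E18 to adult and Lect2, a secreted protein, by 3.14, while Myc fell by 1.08.

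**Figure D4:**
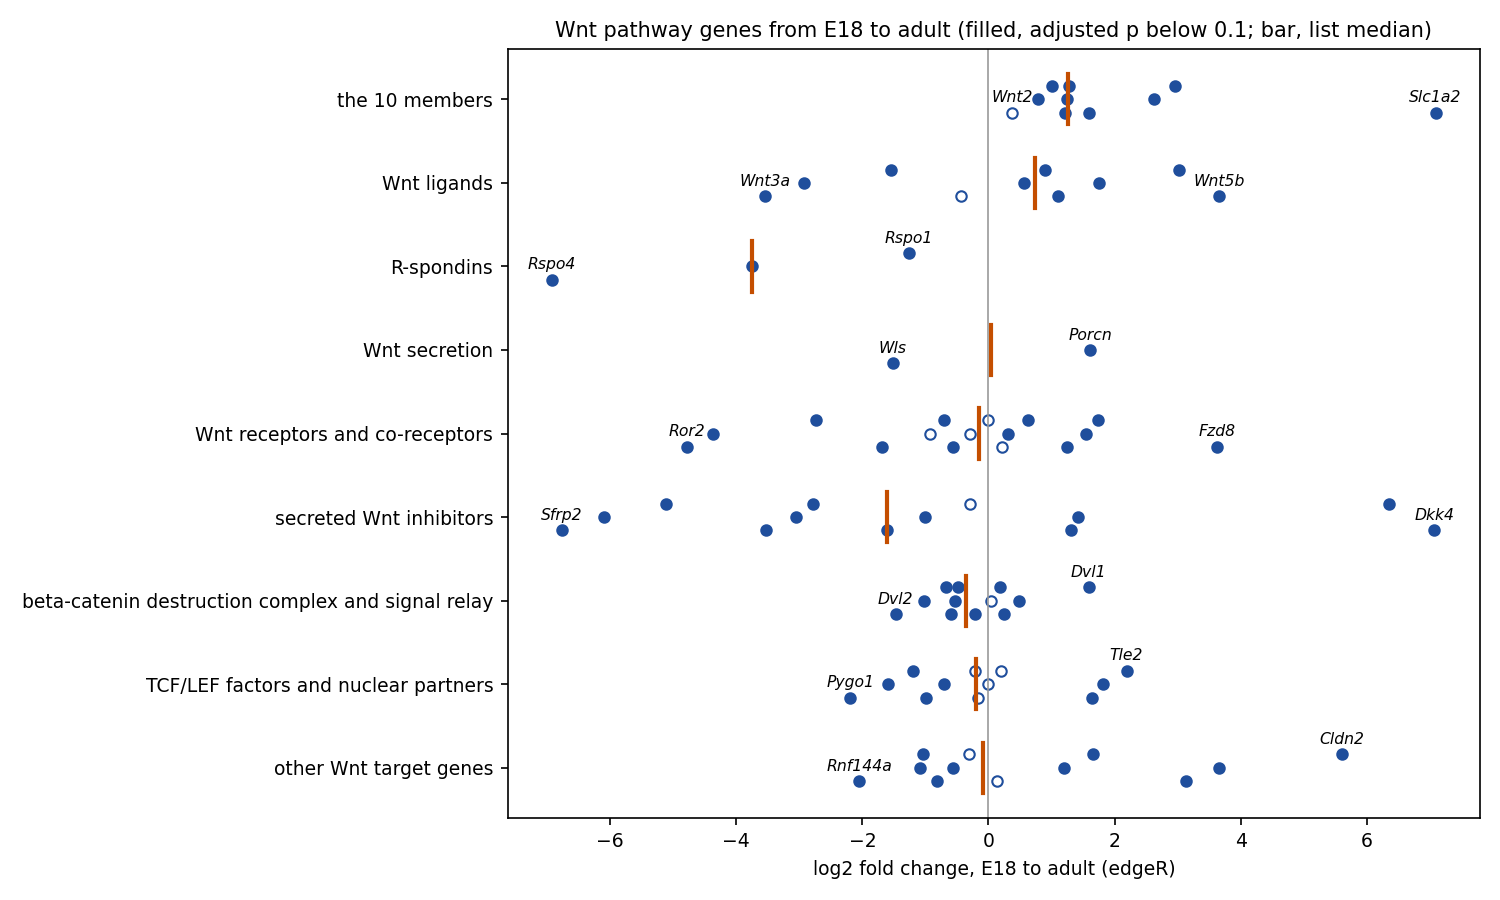
Log2 fold change from E18 to adult (x axis) of the 10 genes and of the tested genes of 8 Wnt pathway lists (rows), filled where the edgeR adjusted p was below 0.1, with a bar at each median and the lowest and highest gene of each list named. The 10 genes had a median of 1.26 and the secreted inhibitors ranged from Sfrp2 to Dkk4 around a median of -1.61, while the position of Rspo4, with 0 reads in adult, depends on the fit.

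Pericentral and periportal hepatocyte genes both rose. Of 21 other pericentral genes all 21 were higher at P14 than at E18, and of 20 periportal genes 19 were. From P14 to adult 14 of 21 pericentral genes rose and 4 fell, and 12 of 20 periportal genes rose and 2 fell, so that the pericentral list had a median log2 fold change of 1.22 and the periportal list 0.62. Cyp2e1 and Cyp1a2, pericentral cytochromes, went from 3688 and 3193 and from 242 and 249 at P14 to 8320 and 7672 and to 810 and 704 in adult. Cps1 and Ass1, periportal urea cycle enzymes, went from 829 and 624 and from 48.4 and 50.8 to 920 and 833 and to 93.7 and 68.4. The periportal list also held rises of that size or more, with log2 fold changes from P14 to adult of 4.40 for the cytochrome Cyp2f2 (SE 0.31, edgeR adjusted p = 6.04e-06) and 1.61 for Tat, a tyrosine-degrading enzyme (SE 0.15, edgeR adjusted p = 3.53e-05), against 1.22 for Cyp2e1 and 1.63 for Cyp1a2. The summed level of the pericentral list was 0.552 and 0.560 times that of the periportal list at E18, then 0.777 and 0.700 times at P14, 0.894 and 0.887 times at P28 and, in adult, 1.06 and 1.07 times. This ratio does not depend on the scaling between samples, but its rise rests on Cyp2e1, which made up 52.0 to 61.8% of the pericentral sum after birth and 0.506 and 0.559% at E18. Without Cyp2e1 the ratio was highest at E18, with 0.549 and 0.557, and lowest at P14, with 0.298 and 0.294, and it reached 0.429 and 0.414 at P28 and 0.406 and 0.413 in adult. The E18 values in turn rest on Rgn, which made up 125 and 152 of the pericentral sums of 207 and 235 at that stage. A ratio without Rgn was not computed, so the order of the stages apart from these 2 genes is not known.

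Over all tested genes, the likeness of a course was measured as the root mean square difference of centred log2 levels over the 8 samples. Nearest to Glul were Zbtb32 (0.0672), Tmbim6 and Atp9a, and nearest to Rspo3 were Msrb3 (0.0442), Rnf128 and 2310028H24Rik. Wnt2 lay nearest to Cables1 (0.127), the endothelial receptor gene Eltd1 and Trf, which encodes transferrin of hepatocytes. Among the genes nearest to Lgr5 were Adam23 (0.184) and Ushbp1. Axin2 had Adamts5 (0.170), Rhbg (0.171), itself among the 10 genes, and Scn7a as its nearest genes.

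The samples held 68154675 to 106055723 reads on genes. Both E18 samples held much RNA of blood cells. All 10 erythroid markers, among them Klf1, were lower at P14, with sums of 6489 and 8429 at E18 and 52.5 to 74.2 later, and 8 of 10 other blood cell markers fell. Of 12 tested pancreas acinar markers 8 fell from E18 to P14, with sums of 192 and 435 at E18. Of 8 tested gut markers 5 fell and 3 rose from E18 to P14, and the summed level of the list was 52.0 and 44.3 at E18 and 202 and 209 at P14, most of the latter from Fabp2, a fatty acid-binding protein. Cdx2, a gut transcription factor, was at most 0.00801 after birth. Of 6 central-vein endothelial markers 4 rose and 2 fell from E18 to P14, the latter being Kit and Vwf, which blood cells also express. Macrophage markers had sums of 118 to 167 at E18, 202 to 246 at P14 and P28, and 111 to 116 in adult, and 4 of 5 mesothelial markers fell from P14 to P28. Sex-linked genes differed between samples. Xist was at 43.2 in E18 replicate 1, which had 0 reads of Ddx3y, and at 31.8 in P14 replicate 2, which had Ddx3y at 1.24. E18 replicate 2 held both, with Xist at 4.67 and Ddx3y at 6.02, and the other 5 samples had Ddx3y at 11.7 to 13.7 and Xist at 0.0304 to 0.0544. The part of sex or of these other cells in the stage differences of the 10 genes was not tested. In GENCODE M21, exons of Rspo3, Axin2, Tbx3, Slc1a2 and Glul overlap a gene on the opposite strand, and those of Rhbg overlap Gm38392 on the same strand. Whether counting used strand is not stated, so reads of these pairs could not be told apart, and Oat has a processed pseudogene copy that could share reads with it.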

How the data were processed

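The authors made 100 bp read pairs from poly(A) RNA, counted reads on genes, and deposited for each sample raw read counts and the RPKM computed from them. The labels name the build mm9, and the aligner is not given in the sources used here. Dividing counts by RPKM returned 1 length per gene and 1 mapped total per sample (73844259 to 112713530). The study describes the samples as biological duplicates, and its Methods name the RNeasy kit, whereas the labels name Trizol.

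In edgeR (version 4.0.16), genes were filtered by filterByExpr and counts were scaled by TMM and fitted with glmQLFit, 1 coefficient per stage over all 8 samples (4 residual degrees of freedom). Stages were compared by glmQLFTest with Benjamini-Hochberg adjustment over 17081 genes. Calls used an adjusted p below 0.1, and 3-fold as a second threshold, as in the study, which used DESeq. The SE is the log2 fold change divided by the square root of F. Alternatives were DESeq2 (version 1.42.0), limma (version 3.58.1) on log2(RPKM + 0.1), other scalings and filters, a replicate block and leaving out each sample. The fits were tested on simulated data in which a small set of genes was changed, equally often up and down, between E18 and adult. All simulated samples otherwise shared the same composition, so that the scaling of the E18 samples was not tested. Scripts ran in R (version 4.3.3) and in Python (version 3.11.15) with matplotlib (version 3.10.9), pandas (version 2.3.3) and numpy (version 2.4.6).

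The 10 genes, the other 22 lists, the tests and the alternatives were chosen with earlier results of these data known, and the alternatives for P14 to adult were added after seeing the files. Named genes were the 10, up to 3 rises and 3 falls per list from E18 to adult, preset partners and the 3 genes most like each of 5 members, of which 1 is not reported here. In the text, further list genes are named with a marker or a limit that they show, chosen after their values were seen. Of 234 genes in the lists, 3 were found under an older symbol and 1 was not listed. Depth was 68154675 to 106055723 reads on genes, and 3 reads, the floor used, equal 0.0216 to 0.0516 normalised counts per 1000000 reads. Counting errors cover counting only.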

Additional observations from a re-analysis of the deposited data

How the results depend on the processing

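Most values of the 10 genes in the 5 comparisons kept their direction and call. With the replicate number as a block all 50 did, with a median-ratio scaling 50 and with only the compared stages 50, while DESeq2 kept 48 and library size alone 41. Whether the shared replicate numbers stand for a pairing or a batch could not be decided, since each stage gives 1 difference between its 2 samples. Deviations of same-numbered samples correlated between stages with r from -0.414 to 0.151 over 8715 genes. In the replicate block 10 genes were higher from E18 to P14, as in the fit without it. Library size alone and limma on log2(RPKM + 0.1), which leave out TMM, turned the log2 fold change from E18 to P14 of Rnf43 to -0.40 and -0.41 and of Tbx3 to -0.07 and -0.09, and that from E18 to adult of Wnt2 to -0.49 and -0.47 and of Rspo3 to -0.07 and -0.08. With both, 1 of the 10 genes was higher over 3-fold from E18 to P14, and 5 were higher and 1 lower from E18 to adult. In the latter interval 19 Wnt pathway genes were higher with both (against 29), and 1 periportal gene was lower (against 0). The number called lower shrank in no pathway list, and among receptors and co-receptors it went from 6 to 10 with library size alone. Over all tested genes 3770 were then higher and 11086 lower from E18 to adult, against 6753 and 7487, and limma gave 3747 and 11225. From P28 to adult 2 of the 10 genes were higher with library size alone, DESeq2 or no filter, and 0 were lower at an adjusted p below 0.05. Of all tested genes 1626 were higher in that interval with library size alone and 1414 with DESeq2, against 1357. Slc13a3 alone among 21 pericentral genes had a fall from E18 to adult near the threshold, and 1 such gene was called lower with library size alone, limma, median-ratio scaling, DESeq2, no filter or at least 10 reads in every sample, against 0. When each sample was left out, calls from P14 to P28 and from P28 to adult changed, as given above for each gene. Whether a pericentral gene was called lower from E18 to adult changed too. The log2 fold change of Oat from P14 to P28 was then 1.36 to 1.62, on either side of the 3-fold threshold of 1.58. Uncalled values that changed sign then were Axin2 from P14 to P28 (-0.50 to 0.04) and from P28 to adult (-0.46 to 0.11), Rspo3 from P28 to adult (-0.17 to 0.07) and Glul from P28 to adult (-0.13 to 0.21). Leaving out the most abundant marker of a list changed relative levels from E18 to P14 and to adult to 0.69 and 1.00 for Wnt2 and to 0.46 and 1.41 for Rspo3, and gave -0.32 from P14 to adult and -1.06 from E18 to adult for Rhbg. A fit with 1 sample left in a stage assumes that it varies like the others. With 2 samples per stage, no sample could be tested as standing apart, and genes with few reads, such as Rspo2, Rspo4 and Dkk4, are limited by counting.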
